A study of Mus musculus with 6 samples.

Results

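The 10 genes described here belong to the fibroblast growth factor (FGF) pathway. They are the 4 FGF receptor genes Fgfr1, Fgfr2, Fgfr3 and Fgfr4, the feedback inhibitors Spry1, Spry2, Spry4 and Dusp6, and the ETS transcription factors Etv4 and Etv5. They were picked by name from the 24393 genes listed in the count files, and all 10 were found and passed the filter on low counts. The 6 libraries came from KH2 mouse embryonic stem cells of strain C57/BL/6, a line that takes up a doxycycline-inducible gene at a fixed site. In the HOXA13 group (3 libraries) the inserted gene was human HOXA13 with a FLAG tag, and the CONTROL group (3 libraries) was grown alongside as its comparison; the labels do not say whether CONTROL cells received doxycycline. All cells were differentiated towards definitive endoderm on M15 feeder cells with Activin-A, basic FGF, CHIR and Noggin, doxycycline (1.25 µg/ml) switched on HOXA13 from day 4, and on day 6 the CXCR4+/E-cadherin+ cells were collected by sorting and cultured on. Every culture therefore received FGF ligand during differentiation. The study's methods do not say whether FGF was in the medium after the sort, before RNA was taken. The study's methods describe targeted clones that were checked for induction and biological replicates picked for sequencing, but not whether each replicate was its own clone, so p-values measure the spread between these samples. The comparison asks how forced HOXA13 changed the transcriptome of cells led towards endoderm.

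FGF ligands bind receptor tyrosine kinases at the cell surface together with heparan sulphate, and the activated receptors signal through RAS and the kinase ERK. ERK signalling switches on Etv4 and Etv5, which carry the response to other genes, and also Sprouty genes and Dusp6, whose products dampen the cascade. In mouse embryonic stem cells FGF4 and ERK drive the exit from pluripotency. In many tissues epithelial cells carry FGFR2 with the IIIb form of its ligand-binding immunoglobulin domain and mesenchymal cells carry the IIIc form, and the forms prefer different ligands.

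Fgfr2 (mm9, chr7:137306026-137410322, minus strand) makes these forms by using 1 of 2 neighbouring exons. A count per gene adds the forms together, so the Fgfr2 values below cannot tell them apart. The exon of the epithelial form is printed to show where the forms differ. In the GENCODE M1 annotation this IIIb exon (chr7:137343272-137343419, minus strand, 148 bases) is in 13 of 29 Fgfr2 transcripts, and its sequence is that of the annotated transcripts, 5′ to 3′.
Fgfr2 exon IIIb: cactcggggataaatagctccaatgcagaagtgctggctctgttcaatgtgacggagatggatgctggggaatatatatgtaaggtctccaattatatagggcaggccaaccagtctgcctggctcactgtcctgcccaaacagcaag

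Promoter windows from RefSeq (GRCm38.p6, 250 bases before to 50 after a start site) were found for 7 of the 10 members. They are printed for Fgfr2, whose groups did not overlap, and for Spry2, an ERK feedback gene, with motif matches in capitals and the strand of the gene.
Fgfr2 promoter, chr7:130266759-130267058, minus strand: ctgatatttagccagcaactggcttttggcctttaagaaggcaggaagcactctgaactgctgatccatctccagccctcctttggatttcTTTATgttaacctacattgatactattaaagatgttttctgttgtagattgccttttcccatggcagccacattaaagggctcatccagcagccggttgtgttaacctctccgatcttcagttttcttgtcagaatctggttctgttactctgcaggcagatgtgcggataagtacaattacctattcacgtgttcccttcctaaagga
Spry2 promoter, chr14:105896770-105897069, minus strand: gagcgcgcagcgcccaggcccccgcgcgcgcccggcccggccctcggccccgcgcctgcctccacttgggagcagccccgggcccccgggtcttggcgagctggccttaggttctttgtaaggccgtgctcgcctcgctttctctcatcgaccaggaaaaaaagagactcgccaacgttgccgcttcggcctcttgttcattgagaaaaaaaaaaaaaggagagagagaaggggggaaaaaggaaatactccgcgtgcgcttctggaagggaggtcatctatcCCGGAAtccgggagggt

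The letters searched on both strands were CCGGAA (ETS factors, in 14.9% of 32851 RefSeq promoters), TGANTCA (AP-1, in 7.81%) and TTTAT (posterior HOX proteins, in 40.0%), and no window held more than 1 match, so no matches overlapped. The Fgfr2 window held 1 TTTAT and the Spry2 window held 1 CCGGAA. Among the other members Fgfr4 held 1 CCGGAA, Fgfr3 and Etv5 each held 1 TTTAT in 1 of their windows, and Spry1 and Dusp6 held 0 of the 3 motifs. These matches describe the sequence and are not evidence of binding.

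Total counts ran from 12279884 to 17331638 per library, so that 3 counts, the floor used here, amounted to between 0.176 and 0.240 CPM (CPM, counts scaled to the TMM-normalised library size); this floor covers counting error only. The row under the human identifier ENSG00000106031, which the files do not pair with a symbol, had 0 counts in each CONTROL library and 2497, 7666 and 6572 in the HOXA13 libraries. Mouse Hoxa13 had between 0 and 10 counts in every library. CONTROL replicate 2 stood apart: Spearman's rho across genes was 0.908 with CONTROL replicate 1 and 0.931 with CONTROL replicate 3, but between 0.951 and 0.961 with the HOXA13 libraries. Of the 12 definitive endoderm markers most were low in all libraries, with Sox17 between 0.975 and 4.84 CPM, Foxa2 between 1.76 and 5.04 CPM and Cer1 at 0 counts. The most abundant of them were Eomes, at 49.0 to 111 CPM in CONTROL and 24.4 to 41.9 CPM in HOXA13, and Gata6, at 5.69 to 35.8 CPM over the 6 libraries. Of the genes for the sorting markers, Cxcr4 was at 2.25 to 11.3 CPM and Cdh1, which encodes E-cadherin, at 192 to 1893 CPM. In such bulk samples fewer cells of a type and less RNA per cell cannot be told apart.

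Fgfr2 was the member that separated the groups. Its normalised level was 9.79, 14.2 and 26.4 CPM in the CONTROL libraries, listed by replicate number here and in what follows, and 45.6, 63.7 and 63.3 CPM in the HOXA13 libraries. Every HOXA13 library lay above every CONTROL library, which held for none of the other 9 members and for 11.5% of the 13600 tested genes in this direction and 8.52% in the other. The means were 16.8 ± 8.61 CPM and 57.5 ± 10.4 CPM (SD, n = 3 each), a 3.43-fold difference (log2 fold change 1.78, SE 0.37). Across all genes this did not pass in edgeR (adjusted p = 0.102, edgeR quasi-likelihood test with Benjamini-Hochberg adjustment; unadjusted p = 0.00134). With DESeq2, the tool of the study, the adjusted p was 0.000466 at a log2 fold change of 1.76, and with limma voom it was 0.0057 at 1.74. Without CONTROL replicate 2 the edgeR log2 fold change was 1.65 with an adjusted p of 0.0245. Over the 15 alternatives the log2 fold change stayed between 1.48 and 2.25 and the adjusted p ran from 0.000466 to 0.496, so the direction held in each while the call depended on the fit.

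**Figure D1:**
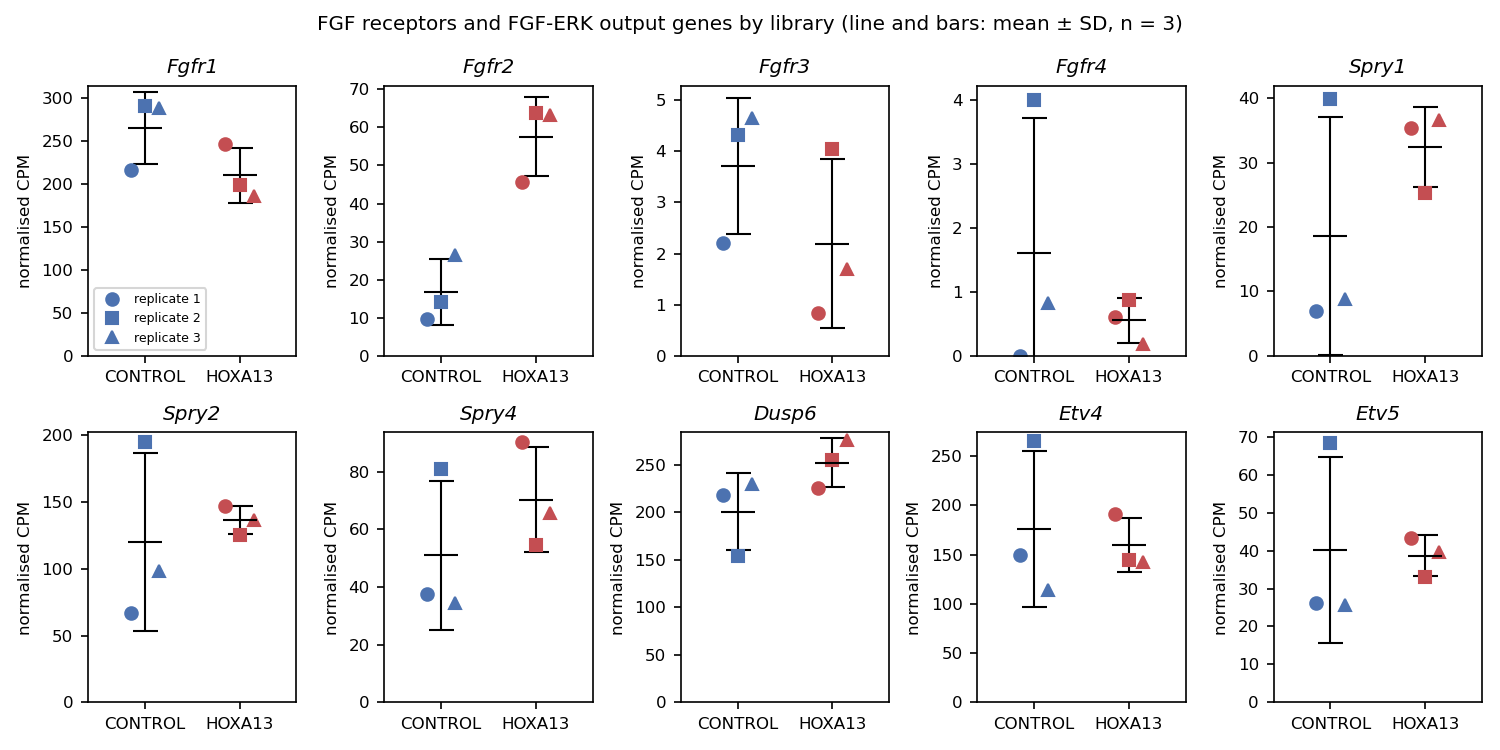
Normalised CPM (vertical axes, each starting at 0) of the 10 members in the 3 CONTROL and 3 HOXA13 libraries, with marker shapes for the replicate number and the mean ± SD of each group (a bar that would reach below 0 is cut there). Fgfr2 is the panel without overlap, and CONTROL replicate 2 (square) is the highest library for 6 of the 10 genes and the lowest for Dusp6.

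In edgeR 0 of the 10 members passed the adjusted threshold of 0.05, against 0.309% of all tested genes, and 1 member, Fgfr2, had an unadjusted p under 0.05, against 14.1% of all tested genes. DESeq2 called 1 member, Fgfr2 (background 5.05%). limma voom with sample quality weights called Fgfr2 and Spry1, 2 of 10 (background 15.4%). The edgeR fit without CONTROL replicate 2 called 4 of 10, namely Fgfr2, Spry1, Spry2 and Spry4, all higher in HOXA13 (background 14.2%). For Spry2 the median of its whole chromosome differed between the libraries in the same direction, as given below. The members had 5 positive and 5 negative log2 fold changes in the fit of all libraries, with a median of 0.07, beside a median of −0.01 over all tested genes. Without CONTROL replicate 2 and in limma voom 8 of 10 were positive and Fgfr1 and Fgfr3 were negative, with medians of 0.49 and 0.34.

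Fgfr1 (mm9, chr8:26624126-26686186, plus strand), the most abundant receptor gene in each library, went the other way without passing the test. It was at 216, 291 and 288 CPM in the CONTROL libraries and at 246, 199 and 186 CPM in the HOXA13 libraries. HOXA13 replicate 1 lay above CONTROL replicate 1, so the groups overlapped. The log2 fold change was −0.34 with an SE of 0.19 (adjusted p = 0.483 in edgeR). A gene annotated on the opposite strand, Gm16159, shares exonic bases with Fgfr1, and the strand setting of the counting was not given in the sources used here.

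The balance of the 2 main receptors was compared within each library, which removes the scaling between libraries. Per 100 Fgfr1 counts the CONTROL libraries held 4.52, 4.86 and 9.17 Fgfr2 counts and the HOXA13 libraries 18.5, 32.1 and 34.1. The lowest HOXA13 library was above the highest CONTROL library. The log2 ratio was −4.09 ± 0.56 in CONTROL and −1.88 ± 0.48 in HOXA13 (SD, n = 3 each), a difference of 2.21 with p = 0.1 in a two-sided exact permutation test, the smallest p that 3 against 3 libraries allow. Leaving out any library gave differences between 2.03 and 2.54.

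**Figure D2:**
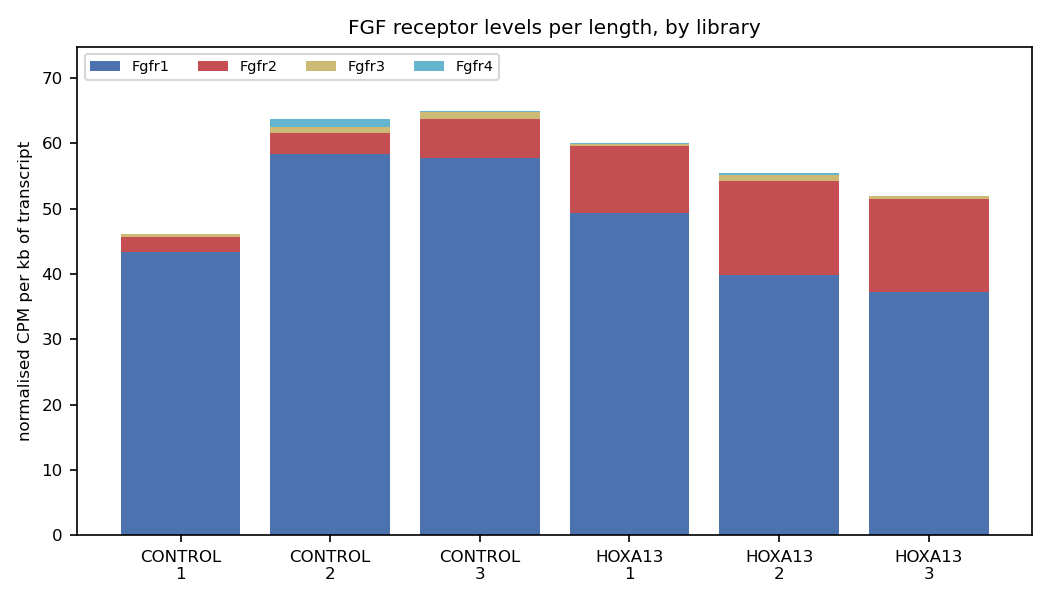
Stacked levels of the 4 receptor genes in each library, in normalised CPM per kb of the longest annotated coding transcript, from 0. Fgfr2 fills 4.79% to 9.17% of the summed receptor level in CONTROL and 17.1% to 27.5% in HOXA13, and Fgfr3 and Fgfr4 are thin layers in every library.

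Levels per length placed Fgfr1 first among the receptors in all 6 libraries. Its level was 53.2 ± 8.47 CPM per kb of its longest coding transcript in CONTROL and 42.1 ± 6.39 CPM per kb in HOXA13. Fgfr2 came second, at 3.79 ± 1.95 and 13.0 ± 2.34 CPM per kb. As a share of the summed receptor level Fgfr2 took 6.32% ± 2.46 in CONTROL and 23.5% ± 5.59 in HOXA13 (SD, n = 3 each), and 5.82% and 22.01% when the length was the union of all annotated exons. Receptor transcripts were thus mostly Fgfr1 in both groups, with a larger Fgfr2 portion in each HOXA13 library.

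Fgfr3 (mm9, chr5:34064373-34079716, plus strand) and Fgfr4 (chr13:55254001-55270120, plus strand) were barely detected. Fgfr3 was at 2.20, 4.32 and 4.65 CPM in CONTROL and at 0.845, 4.04 and 1.70 CPM in HOXA13, with overlapping groups (log2 fold change −0.75, SE 0.76, adjusted p = 0.734 in edgeR, and −1.56 without HOXA13 replicate 2). Fgfr4 was counted 0, 50 and 11 times in CONTROL and 8, 15 and 3 times in HOXA13. Most Fgfr4 counts of the CONTROL group were therefore from replicate 2, and the 0 of replicate 1 allows a level of up to 0.213 CPM. Its log2 fold change was −1.51 with an SE of 1.52 (adjusted p = 0.735 in edgeR), and it turned to 0.42 without CONTROL replicate 2.

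The Sprouty genes, which encode inhibitors of receptor tyrosine kinase signalling, were each higher in CONTROL replicate 2 than in the other CONTROL libraries. Spry1 (mm9, chr3:37538869-37543520, plus strand) was at 7.02, 39.9 and 8.78 CPM in CONTROL and at 35.4, 25.4 and 36.6 CPM in HOXA13. CONTROL replicates 1 and 3 were below every HOXA13 library, and CONTROL replicate 2 was above all of them. Over all 6 libraries the log2 fold change was 0.81 with an SE of 0.62 (adjusted p = 0.634 in edgeR). Without CONTROL replicate 2 it was 2.02 with an adjusted p of 0.00386, and in limma voom it was 1.78 with an adjusted p of 0.0119.

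Spry2 (mm9, chr14:106291166-106296036, minus strand) had the same order of libraries within CONTROL, at 66.9, 195 and 98.3 CPM, and was at 147, 125 and 137 CPM in HOXA13. Its log2 fold change was 0.18 with an SE of 0.35 (adjusted p = 0.868 in edgeR), 0.71 without CONTROL replicate 2 (adjusted p = 0.0431) and −0.13 without CONTROL replicate 1. Its direction thus turned with the CONTROL library left out. The median log2 fold change of chromosome 14 genes was 0.33, and after subtraction of chromosome medians Spry2 stood at −0.08. By library, the chromosome 14 median of centred log2 CPM was −0.40, 0.20 and −0.32 in CONTROL and 0.22, 0.14 and 0.18 in HOXA13. CONTROL replicate 2 was thus the CONTROL library on the side of the HOXA13 libraries. Chromosome medians were not subtracted in the fit without CONTROL replicate 2.

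Spry4 (mm9, chr18:38745922-38760922, minus strand) was at 37.6, 80.8 and 34.6 CPM in CONTROL and at 90.3, 54.7 and 65.7 CPM in HOXA13. CONTROL replicate 2 again exceeded the other CONTROL libraries, but here HOXA13 replicate 1 was the highest library. The log2 fold change was 0.46 with an SE of 0.36 (adjusted p = 0.637 in edgeR) and 0.94 without CONTROL replicate 2 (adjusted p = 0.0291).

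Dusp6 (mm9, chr10:98725865-98730122, plus strand), which encodes a phosphatase that inactivates ERK, did not follow the Sprouty genes. It was at 218, 154 and 229 CPM in CONTROL and at 225, 255 and 276 CPM in HOXA13. CONTROL replicate 2 was its lowest library, and CONTROL replicate 3 lay just above HOXA13 replicate 1. The log2 fold change was 0.33 with an SE of 0.19 (adjusted p = 0.504 in edgeR) and 0.16 without CONTROL replicate 2.

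Etv4 and Etv5, the ETS factors induced by FGF signalling, had group means that lay close together. Etv4 (mm9, chr11:101631056-101646685, minus strand) was at 149, 265 and 114 CPM in CONTROL and at 191, 145 and 143 CPM in HOXA13, a log2 fold change of −0.14 with an SE of 0.31 (adjusted p = 0.887 in edgeR). Etv5 (chr16:22381382-22439792, minus strand) was at 26.2, 68.4 and 25.7 CPM in CONTROL and at 43.4, 32.9 and 39.7 CPM in HOXA13, a log2 fold change of −0.05 with an SE of 0.39 (adjusted p = 0.974 in edgeR). In both genes CONTROL replicate 2 was the highest of the 6 libraries and spread the CONTROL group. Without it Etv4 was at 0.26 (adjusted p = 0.411) and Etv5 at 0.56 (adjusted p = 0.116), neither past the threshold. With chromosome medians subtracted in the fit of all libraries Etv4 stood at −0.05.

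**Figure D3:**
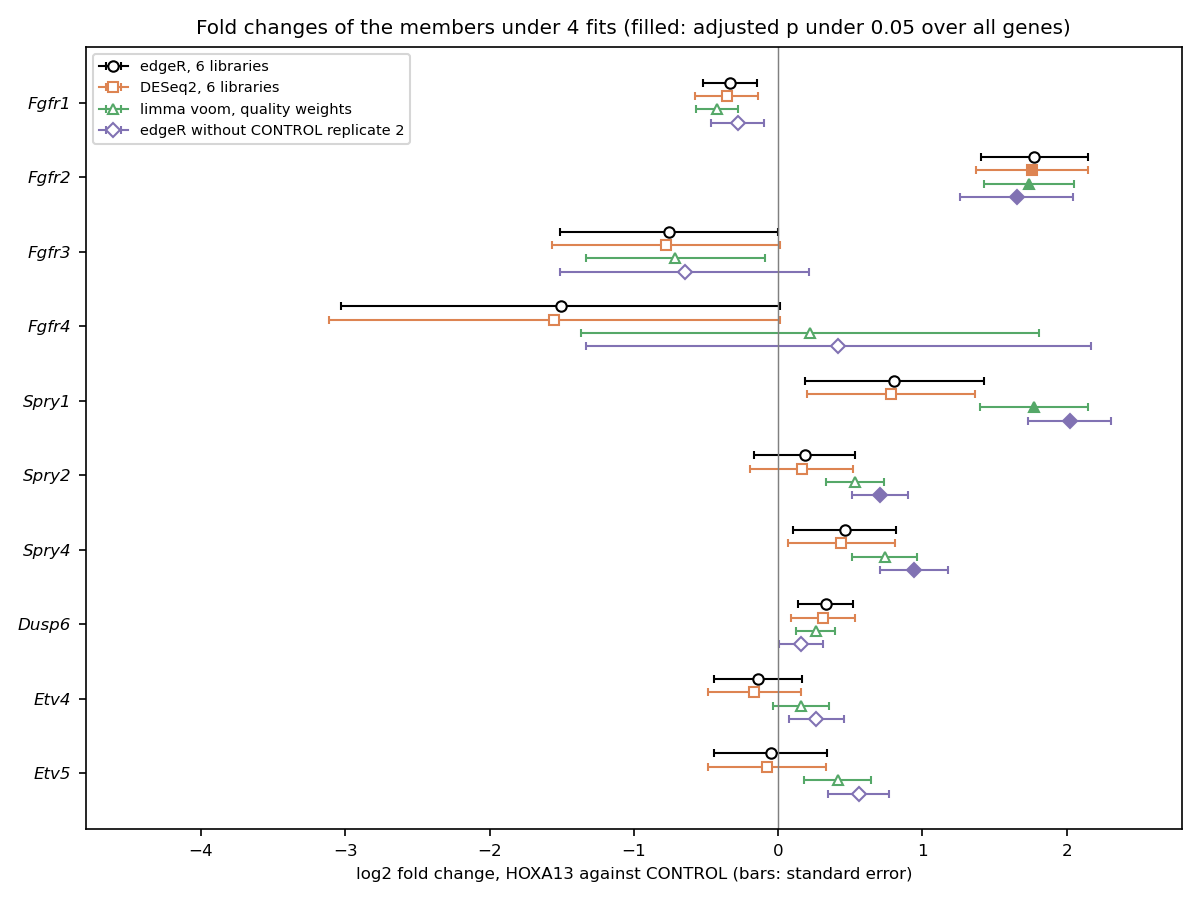
Log2 fold change of each member, HOXA13 against CONTROL (horizontal axis, bars are standard errors), in edgeR, DESeq2, limma voom with sample quality weights and edgeR without CONTROL replicate 2; filled symbols passed an adjusted p of 0.05 over all genes. Fgfr2 lies between 1.65 and 1.78 in all 4 fits, and Spry1 moves from 0.81 to 2.02 when CONTROL replicate 2 is left out.

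In order of level per length, Etv4, Dusp6, Spry2 and Fgfr1 formed an upper tier and the other 6 members a lower one. In CONTROL the upper tier was Etv4 at 73.5 ± 33.1, Dusp6 at 71.7 ± 14.5, Spry2 at 57.5 ± 32.0 and Fgfr1 at 53.2 ± 8.47 CPM per kb, and these neighbours did not differ beyond their spread. The lower tier ran from Spry4 at 11.1 ± 5.63 through Etv5 at 10.1 ± 6.17 and Spry1 at 6.70 ± 6.67 to Fgfr2 at 3.79 ± 1.95 CPM per kb, with neighbours within their spread, and below these came Fgfr3 at 0.882 ± 0.315 and Fgfr4 at 0.484 ± 0.635 CPM per kb. In HOXA13 the order was Dusp6 at 90.2 ± 9.11, Etv4 at 66.7 ± 11.5, Spry2 at 65.4 ± 5.18 and Fgfr1 at 42.1 ± 6.39 CPM per kb, then Spry4 at 15.3 ± 3.97, Fgfr2 at 13.0 ± 2.34, Spry1 at 11.7 ± 2.22 and Etv5 at 9.73 ± 1.34 CPM per kb. Spry4, Fgfr2 and Spry1 lay within 1 SD of their neighbours there. Fgfr2 thus moved from the eighth to the sixth place, although with the union of exons as the length it stayed in the eighth, and Dusp6 and Spry2 then stood above Etv4 in CONTROL.

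CONTROL replicate 2 differed from its group in other genes that bear on FGF signalling. Fgf4, the ligand of pluripotent cells, was at 0, 21.9 and 0.900 CPM in CONTROL and at 0.692, 0.410 and 2.12 CPM in HOXA13. The 14 pluripotency markers summed to 1536 CPM in CONTROL replicate 2, to 208 and 272 CPM in CONTROL replicates 1 and 3 and to between 518 and 818 CPM in HOXA13. Pou5f1, a core pluripotency factor, was at 0.851, 310 and 5.78 CPM in CONTROL and between 10.1 and 75.9 CPM in HOXA13, and Nanog was at 0.709, 46.9 and 1.80 CPM and between 1.29 and 4.77 CPM. Spry1, Spry2, Etv4 and Etv5 were thus highest in the library with the most pluripotency transcripts; the part of that library's makeup in their values was not tested.

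Markers of other cell types differed between libraries, although edgeR called 0 genes of these lists. All 20 epithelial markers had positive log2 fold changes and 16 of 20 were higher without overlap (48.82% and 11.5% of all tested genes), with summed levels of 2399, 8828 and 5962 CPM in CONTROL and 11080 to 12880 CPM in HOXA13. Of the mesenchymal and fibroblast markers 3 of 19 tested had a positive log2 fold change, and their sum was 12570, 2894 and 10170 CPM in CONTROL and 2395 to 6145 CPM in HOXA13. The mesonephric markers of the M15 feeder were positive in 0 of 9 tested and summed to 57.6, 72.5 and 70.8 CPM in CONTROL and 29.6 to 54.4 CPM in HOXA13. Gata4, which is also on the extraembryonic endoderm list, held 16.5, 30.9 and 26.7 CPM of the CONTROL sums. Pax2, Pax8, Osr1 and Tcf21 were at 1.17 CPM or less in every library. The extraembryonic endoderm markers were positive in 0 of 11 tested, with sums of 6917, 2732 and 6505 CPM in CONTROL and 1876 to 3089 CPM in HOXA13. Most of each sum came from Sparc, Col4a1, Col4a2 and Lamb1, while Afp and Ttr of the same list had 0 counts in every library. These sums therefore do not show extraembryonic endoderm cells. The trophoblast markers were positive in 7 of 10, with sums of 233 to 421 CPM and 374 to 412 CPM. Fgfr2 was lowest in CONTROL replicate 1, the library with the lowest epithelial and the highest mesenchymal sum, and in CONTROL replicate 2, where the mesenchymal sum was within the HOXA13 range and the epithelial sum below it, it was below every HOXA13 library. CONTROL replicate 3 held more Fgfr2 than CONTROL replicate 2 (26.4 against 14.2 CPM), with a lower epithelial and a higher mesenchymal sum. How far the cell makeup set the Fgfr2 values was not tested.

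**Figure D4:**
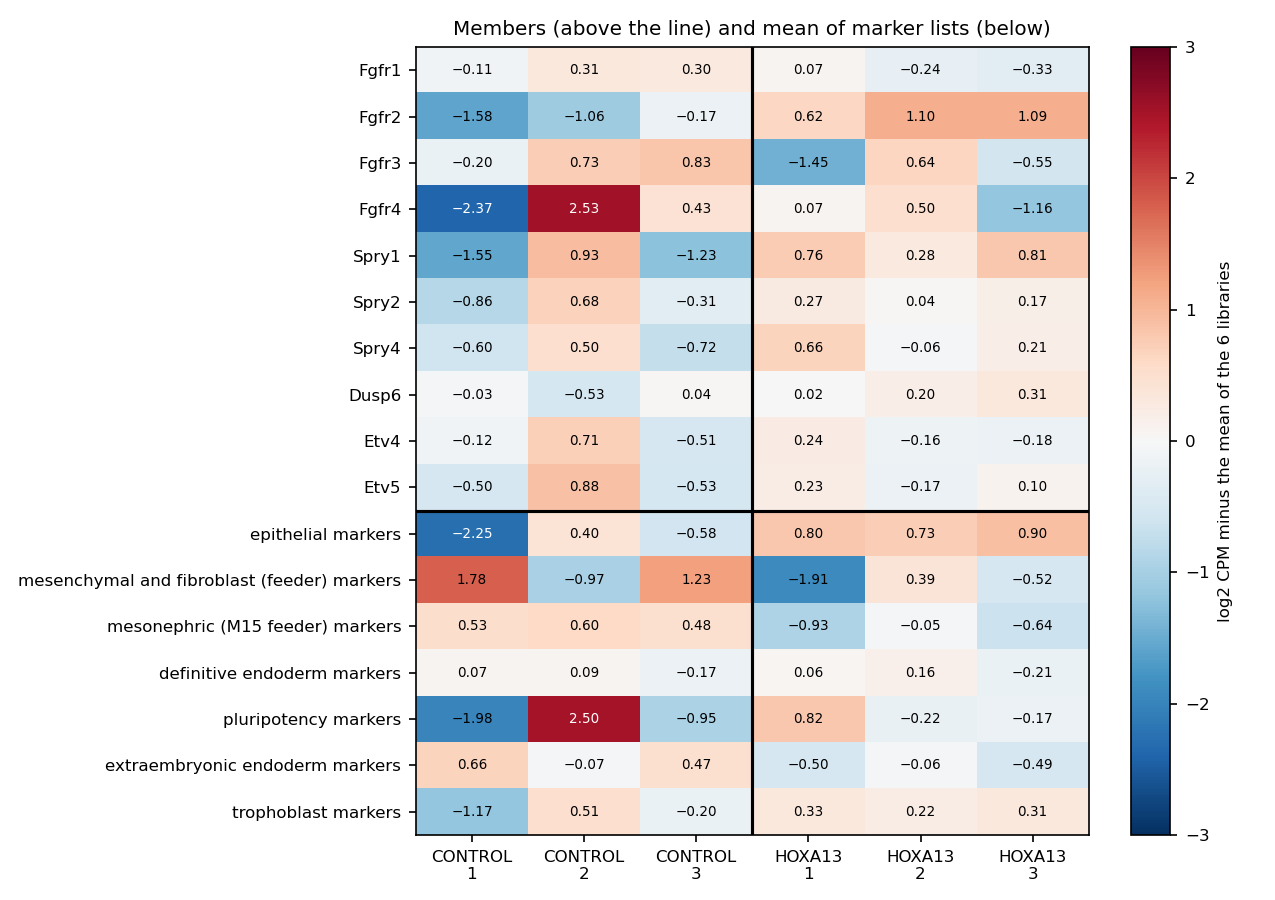
Log2 CPM of each member minus its mean over the 6 libraries (upper rows), and the same averaged over each marker list (lower rows), by library, with red above and blue below the mean. CONTROL replicate 2 is high for the pluripotency list (2.50) and, among the members, for Fgfr4 (2.53), Spry1 (0.93), Etv5 (0.88), Fgfr3 (0.73), Etv4 (0.71), Spry2 (0.68), Spry4 (0.50) and Fgfr1 (0.31), and low for Dusp6 (−0.53) and Fgfr2 (−1.06).

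The wider pathway was read from 8 lists holding 118 further genes, of which 100 were tested. edgeR called 2 of the 100 (background 0.309%) and 28 had an unadjusted p under 0.05 (background 14.1%), and the median log2 fold change was −0.05. Between the groups 18 genes were higher in HOXA13 without overlap and 15 were lower, of the 100 tested, beside backgrounds over all genes of 11.5% and 8.52%. DESeq2 called 7 higher and 9 lower of 105 (background 5.05%), and without CONTROL replicate 2 edgeR called 11 higher and 21 lower of 102 (background 14.2%). Of the named genes below that edgeR did not call, DESeq2 called Fgf1, Fgf13, Gpc3, Gpc6, Hs6st2, Esrp2, Rps6ka1, Dusp4, Erbb3, Kdr, Axl and Plcg1. The edgeR fit without CONTROL replicate 2 called these except Fgf1, and also Fgf18, Hspg2, Sulf2, Esrp1, Rbfox2, Flrt2, Crk and Pdgfrb. Crk and Fgf18 belong to chromosome 11, whose median of centred log2 CPM was 0.38 in CONTROL replicate 1 and −0.12 to −0.03 in the other libraries. With chromosome medians subtracted in the fit of all libraries, Crk moved from −0.39 to −0.23 and Fgf18 from −1.22 to −1.03. Values of named genes follow in the order of the pathway.

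Among the 18 FGF ligands 7 were tested, 0 passed, and 1 had a positive log2 fold change, with a median of −0.76. Without CONTROL replicate 2, the library that held most Fgf4, 4 of the 7 were positive with a median of 0.11. The direction of the list thus turned when that library was left out. In limma voom, which kept all 6 libraries with sample quality weights, 5 of 7 were positive. The direction of this list was not tallied with any other library left out. Fgf18 had the highest mean over the 6 libraries, at 13.6, 3.12 and 14.3 CPM in CONTROL and between 3.03 and 6.30 CPM in HOXA13 (adjusted p = 0.433 in edgeR). Fgf5, a ligand of the primed epiblast, was at 5.25 to 10.6 CPM in CONTROL and 0.999 to 6.68 CPM in HOXA13, and Fgf2 was at or below 3.69 CPM in every library. None of the 7 tested ligands separated the groups. Fgf1, a ligand of all 4 receptors that did not pass the edgeR filter, is named after its values were seen: it had 0 counts in each CONTROL library and 16, 53 and 3 counts in the HOXA13 libraries, the last at the floor, and DESeq2 called it (adjusted p = 0.026). Of the 4 FGF homologous factors, relatives that stay inside the cell and do not activate receptors, both tested genes are given although they were outside the naming rule, because their groups did not overlap. Fgf11 was at 1.12 to 1.43 CPM in CONTROL and 1.99 to 2.46 CPM in HOXA13 (adjusted p = 0.701 in edgeR). Fgf13 was at 3.76 to 12.1 CPM in CONTROL and 23.2 to 29.1 CPM in HOXA13 (log2 fold change 1.57, SE 0.42, adjusted p = 0.158 in edgeR).

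The heparan sulphate genes held both edgeR calls. Gpc1, a glypican that carries heparan sulphate at the cell surface, rose from 98.5 to 123 CPM in the CONTROL libraries to 229 to 344 CPM in the HOXA13 libraries (log2 fold change 1.37, SE 0.19, adjusted p = 0.0466 in edgeR). Hs6st1, which adds the 6-O-sulphate groups of heparan sulphate, rose from 41.6 to 82.8 CPM to 211 to 240 CPM (log2 fold change 1.81, SE 0.25, adjusted p = 0.0461). Its relative Hs6st2, named after its values were seen, went the other way with overlapping groups. Hs6st2 was at 127, 17.6 and 96.5 CPM in CONTROL and at 8.45, 22.55 and 17.2 CPM in HOXA13. Its log2 fold change was −2.32 with an SE of 0.67 (adjusted p = 0.18 in edgeR and 0.00258 in DESeq2). Gpc1 and Hs6st1 belong to chromosome 1, where the median over genes was 0.54 on the log2 scale, and after subtraction of chromosome medians Gpc1 stood at 0.79 (adjusted p = 0.152) and Hs6st1 at 1.23 (adjusted p = 0.115). Both calls were also lost among genes averaging at least 50 counts, and whenever a library other than CONTROL replicate 2 was left out. The same held with the replicate number as a block, although these numbers did not pair the samples. Other glypicans lay lower in HOXA13 without overlap, though short of the threshold: Gpc3 was at 22.5 to 60.1 CPM in CONTROL and 4.69 to 9.34 CPM in HOXA13 (adjusted p = 0.0619), and Gpc6 was at 6.16 to 49.4 CPM and 2.69 to 4.43 CPM (adjusted p = 0.114). Hspg2 (perlecan) was at 986 to 1721 and 796 to 1092 CPM, and Sulf2, which trims 6-O-sulphates, was at 221 to 306 and 214 to 221 CPM. Of the 20 tested genes of this list 7 had a positive log2 fold change, 3 were higher and 7 lower without overlap (11.5% and 8.52% of all tested genes), and the median was −0.44.

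Esrp1 and Esrp2, epithelial splicing factors that promote the IIIb form of Fgfr2, were higher in HOXA13 without overlap but did not pass in the edgeR fit of all libraries. Esrp1 was at 3.76, 61.8 and 21.3 CPM in CONTROL and at 92.1, 89.0 and 118 CPM in HOXA13 (log2 fold change 1.79, SE 0.77, adjusted p = 0.351 in edgeR). Esrp2 was at 36.8, 55.3 and 68.1 CPM and at 83.2, 110 and 137 CPM (log2 fold change 1.04, SE 0.28, adjusted p = 0.15). Without CONTROL replicate 2 Esrp1 was at 2.98 (adjusted p = 0.0117) and Esrp2 at 1.05 (adjusted p = 0.0473) in edgeR. With limma voom they were at 2.95 and 1.11 (adjusted p = 0.00492 and 0.0132), and DESeq2 called Esrp2 (adjusted p = 0.0224) but not Esrp1 (adjusted p = 0.392). The general splicing factors Ptbp1 and Srsf1 had log2 fold changes of −0.04 and 0.14, and 0 of the 5 splicing genes passed in the edgeR fit of all libraries. Rbfox2, the remaining gene of the list, is named after its values were seen. It was lower in HOXA13 with overlapping groups, at −0.60 (adjusted p = 0.313 in edgeR). Without CONTROL replicate 2 Rbfox2 was at −0.84 (adjusted p = 0.00978 in edgeR), and with limma voom at −0.85 (adjusted p = 0.00757).

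Of the 18 receptor partners and adaptors tested 9 had a positive log2 fold change and 0 passed in edgeR. Gab1 and Crk, the most abundant adaptors, had log2 fold changes of −0.57 and −0.39, while Flrt2 was at −1.64 (SE 0.79) and Fgfbp3, which releases FGFs from the matrix, at 1.35 (SE 0.42, adjusted p = 0.201 in edgeR). Plcg1, a phospholipase recruited by FGF receptors, is named after its values were seen, since it was lower without overlap, at 51.6 to 107 CPM in CONTROL and 40.5 to 44.0 CPM in HOXA13 (log2 fold change −1.01, SE 0.27, adjusted p = 0.158). In the RAS-ERK cascade 7 of 16 were positive, 0 passed and the median was −0.04, with Nras, a RAS GTPase, at 248 ± 46.5 and 234 ± 16.4 CPM (SD, n = 3 each). Rps6ka1, an ERK-activated kinase, was at 52.8 to 123 CPM in CONTROL and 160 to 192 CPM in HOXA13 (log2 fold change 1.12, SE 0.31, adjusted p = 0.167), and Ksr1, an ERK scaffold, was under 6 CPM in all libraries.

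Among the 20 other ERK feedback and output genes tested, 13 had a positive log2 fold change, 0 passed and the median was 0.09. Dusp4, a nuclear ERK phosphatase, was at 657, 373 and 849 CPM in CONTROL and at 262, 285 and 234 CPM in HOXA13, without overlap and in the opposite direction to its relative Dusp6 (log2 fold change −1.27, SE 0.28, adjusted p = 0.112 in edgeR). Etv1, the third gene of the Etv4 and Etv5 subfamily, was at 1.99 to 3.36 and 1.05 to 1.46 CPM. Egr1, an immediate early gene, was at 261 to 743 CPM in CONTROL and 180 to 950 CPM in HOXA13 and did not order the groups.

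Other receptor tyrosine kinases gave a scale for the receptor values. Of 12 tested, 6 had a positive log2 fold change and 0 passed. Erbb3, a partner of ERBB2 in epithelia, was at 7.52, 35.3 and 18.6 CPM in CONTROL and at 62.8, 96.1 and 78.6 CPM in HOXA13 (log2 fold change 1.95, SE 0.49, adjusted p = 0.144 in edgeR). Without CONTROL replicate 2 its log2 fold change was 2.59 (adjusted p = 0.00431), and with DESeq2 it was 1.93 (adjusted p = 0.00198). Kdr, a receptor for vascular endothelial growth factor named after its values were seen, was lower without overlap, at 125, 66.8 and 137 CPM in CONTROL and at 44.3, 43.6 and 27.9 CPM in HOXA13 (log2 fold change −1.51, SE 0.31, adjusted p = 0.0999 in edgeR and 0.000346 in DESeq2). Axl, at 132 to 576 and 75.5 to 194 CPM, and the mesenchymal receptor Pdgfrb, at 2.48 to 38.5 and 3.30 to 7.56 CPM, had negative log2 fold changes of −1.61 and −1.83 with overlapping groups. Igf1r was at 132 ± 28.4 and 126 ± 13.4 CPM (SD, n = 3 each).

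**Figure D5:**
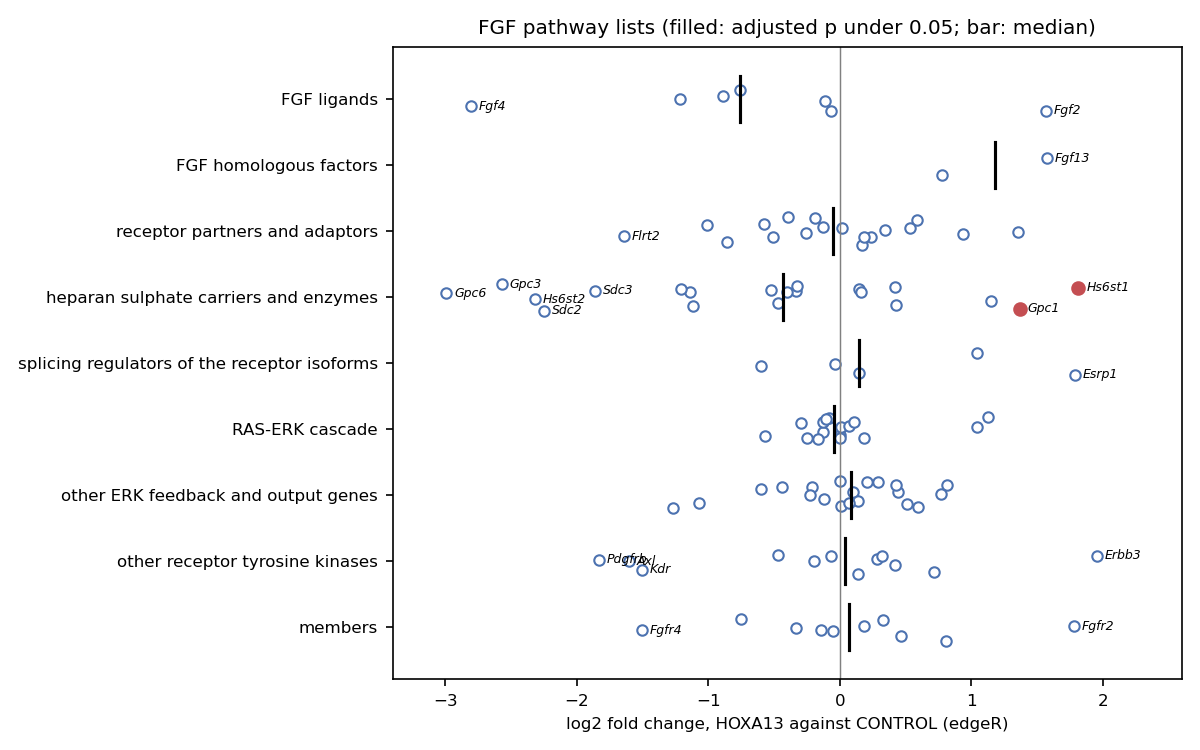
Log2 fold change of each tested pathway gene by list, with the 10 members in the last row; filled points passed an adjusted p of 0.05 in edgeR and vertical bars are list medians. The 2 filled points are Gpc1 (1.37) and Hs6st1 (1.81), and Fgfr2 stands at the right end of the members.

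The genes most like a member in their pattern over the 6 libraries were ranked by the root mean square difference of centred log2 CPM among 10724 genes. For Fgfr2 they were 2010107G23Rik (0.248), Nbeal2 (0.256), Tmem63a (0.304), Pdgfb (0.305) and Eya4 (0.310). Those for Fgfr1 were Rap2b (0.026), Mtg1, Dgkz, Cisd1 and Ext2, and Ext2 makes the heparan sulphate chain. Those for Etv4 were Thop1 (0.091), Rfc2, Rpl39, Gt(ROSA)26Sor and Snx5. This difference grows with the spread of the member itself, so the values are not compared between members.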

How the data were processed

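RNA was measured in 6 libraries (3 CONTROL, 3 HOXA13), grouped and numbered by their titles. Each deposited file lists raw counts of reads by gene symbol, which the authors made from stranded libraries aligned to mm9 with TopHat (TopHat2 2.0.14 in the submitters' processing notes, another version in the study's methods) and counted with HTSeq 0.6.1p1. The annotation and strand setting are not given in the sources used here. In GENCODE M1, 1 long Fgfr2 model runs into exons of Ctbp2, and 3.7% of the 75-base stretches of Fgfr2 transcripts also occur there; Ctbp2 had a log2 fold change of −0.08. The other 9 members shared 0 such stretches with another gene's coding transcripts.

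Differential expression was computed with edgeR 4.0.16 under R 4.3.3 (filterByExpr with a minimum count of 10 and a minimum total of 15, TMM, quasi-likelihood test on the group over all 6 libraries, Benjamini-Hochberg adjustment over 13600 genes, threshold 0.05). Standard errors come from the F statistic. Alternatives were DESeq2 1.42.0, limma 3.58.1 voom with sample quality weights, edgeR 4's own quasi-likelihood method, other scalings and filters, a replicate block, each replicate left out and, added after seeing the data, an offset by chromosome median. log2 CPM used a prior count of 2 and the receptor ratio an offset of 0.5 counts. The steps were tested on simulated data. The 10 members and all lists were chosen with earlier results of these data known. Named pathway genes are those past the threshold in a list with at least 3 tested genes, with the 2 most abundant and the 2 with the largest absolute log2 fold change among genes of at least 1 CPM; likeness was ranked among genes of at least 5 CPM. A group mean is given with its SD, and no replicate pair agreed within sampling noise (chi-square per degree of freedom 16.5 to 136). A gene that the naming rule selects and an exon sequence are not reported here.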

Additional observations from a re-analysis of the deposited data

How the results depend on the processing

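Of 148 refits of single members 130 kept the direction and the side of the threshold, 8 moved past the threshold and 10 reversed. Fgfr4 reversed with limma voom (0.22) and without CONTROL replicate 2 (0.42), Etv4 with limma voom (0.16) and without CONTROL replicate 2 (0.26), and Etv5 with limma voom (0.41), the replicate block (0.11), without CONTROL replicate 2 (0.56) and without HOXA13 replicate 2 (0.03). Spry2 reversed with the chromosome offset (−0.0797), which was added after seeing the data, and without CONTROL replicate 1 (−0.13). Leave-one-out log2 fold changes ran from −2.12 to 0.42 for Fgfr4, −0.13 to 0.71 for Spry2, −0.40 to 0.26 for Etv4, −0.31 to 0.56 for Etv5, −1.56 to −0.39 for Fgfr3, 0.39 to 2.02 for Spry1, 0.23 to 0.94 for Spry4 and 0.16 to 0.42 for Dusp6. Fgfr2 also passed without the filter (adjusted p = 0.0457, edgeR).

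The count of members past the threshold was 1 with DESeq2, 2 with limma voom, 1 with no filter and from 0 to 4 when a library was left out, the 4 being without CONTROL replicate 2. The count of all genes was 42 (36 higher, 6 lower) in edgeR, 722 with DESeq2, 106 with the edgeR 4 method, 2101 with limma voom, 163 with no filter, 9 among genes averaging at least 50 counts, 1 with the chromosome offset and 0 to 2006 with a library left out, 2006 being without CONTROL replicate 2. The count of pathway genes was 2 in edgeR, 16 with DESeq2, 33 with limma voom, 6 with no filter, 0 among genes averaging at least 50 counts, 0 with the chromosome offset and 0 to 32 with a library left out. The cause of these shifts was not tested. Genes at the level of Fgfr4 rest on few counts.

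Replicate numbers did not pair the samples: the correlations of same-numbered deviations were −0.21, −0.271 and 0.0979. With the replicate block 0 genes and 0 pathway genes passed (1392 and 21 at an unadjusted p under 0.05), 0 members passed, and Fgfr2 was at 1.88 with an adjusted p of 0.173. The receptor ratio difference of 2.21 could not change under the pairing. With 3 complete pairs the mean paired difference equals the difference of the group means. Its p under the pairing was 0.25, the smallest that 3 pairs allow in an exact test.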
